A study of Mus musculus with 40 samples.

Results

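The genes described here are the 10 cadherin and desmosome genes Cdh1, Cdh17, Dsg2, Dsg3, Dsc2, Dsc3, Pkp1, Pkp3, Jup and Dsp, taken by symbol from tables of 45706 genes measured in 40 libraries. The libraries formed 10 groups of 4, each of 1 cell type sorted by flow cytometry. Tumor-bearing mice carried a Cre recombinase controlled by the Cdx2 promoter together with floxed Apc (Cdx2CreERT2 - Apc fl/fl). They were given tamoxifen once at 25 mg/kg at 8 to 10 weeks of age by the labels (the study's methods give a wider range), and they developed colon adenomas. Healthy mice were labeled C57Bl6 with no transgene and no agent, while the strain label of tumor-bearing mice began with C57Bl6/Sv followed by a number that differed from library to library. Tumor, transgene, tamoxifen and strain therefore cannot be told apart in any comparison of tumor-bearing with healthy mice. The ages of the healthy mice are not given in the sources used here. Epithelial cells (EpCAM+ CD45-) and stromal cells (EpCAM- CD45-) came from tumors and from healthy colon. Neutrophils (Ly6G+) and monocytes (Ly6G- Ly6C high) came from tumors and also from blood, where both kinds of mice were sampled and some libraries pooled animals.

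Desmosomes are junctions that tie the keratin filaments of neighboring epithelial cells together. Desmogleins (Dsg) and desmocollins (Dsc) are their membrane-spanning cadherins, plakoglobin (Jup) and the plakophilins (Pkp) bind the tails of those cadherins, and desmoplakin (Dsp) links the plaque to keratin. Cdh1 encodes E-cadherin, the cadherin of epithelial adherens junctions, and Cdh17 encodes a cadherin of the intestinal epithelium. Dsg2 and Dsc2 are the usual desmosomal cadherins of the gut, whereas Dsg3, Dsc3 and Pkp1 are best known from stratified epithelia such as the epidermis.

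Several libraries bear on the values that follow. Library totals ran from 10717873 to 38002939 counts, and mitochondrial genes took 5.34% to 83.9% of them, the highest share being that of healthy epithelial replicate 4. Apc, the deleted gene, measured 5.97, 6.51, 6.02 and 6.31 RPKM in tumor epithelial replicates 1 to 4 and 3.34, 2.52, 2.14 and 0.343 RPKM in healthy epithelial replicates 1 to 4. These whole-gene values include exons outside the deleted part, so they check nothing about the deletion. The summed level of 7 Wnt target genes was 55.1 to 72.3 RPKM in tumor epithelium and 1.20 to 12.4 RPKM in healthy epithelium. Tumor stromal replicates 1 and 2 went against their label. Their 12 epithelial markers summed to 170 and 89.5 RPKM, their 5 endothelial markers to 0.69 and 1.22 RPKM and their 6 fibroblast markers to 5.97 and 24.0 RPKM. Tumor stromal replicates 3 and 4 held endothelial markers at 69.7 and 73.5 RPKM, but also neutrophil markers at 1508 and 511 RPKM, and fibroblast markers at only 18.8 and 18.3 RPKM, against 355 to 2010 RPKM in healthy stroma. Counts that rest on replicates 1 and 2 are repeated without them.

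Across the 10 groups, most members were high in both epithelia, low in healthy stroma and near 0 in blood. Mean Cdh1 was 40.9 ± 12.4 RPKM in tumor epithelium and 33.1 ± 19.7 RPKM in healthy epithelium (SD, n = 4 each), and no blood library exceeded 0.0859 RPKM. Dsc3, Dsg3, Jup and Pkp3 departed from this pattern. Dsc3 was high in tumor epithelium and near 0 in healthy epithelium, and Jup in healthy stroma (5.42 ± 0.841 RPKM, SD, n = 4) ranked above healthy epithelium (3.71 ± 1.59 RPKM, SD, n = 4), with overlapping libraries. That order of Jup holds for RPKM, which is scaled to all mapped reads. Mitochondrial genes took 48.6% to 83.9% of the counts in healthy epithelium and 15.6% to 24.9% in healthy stroma. On the edgeR scale Jup leaned toward epithelium instead (log2 0.42, interval -0.05 to 0.88). Dsg3 was low throughout, at 0.153 ± 0.135 RPKM in tumor epithelium, and Pkp3 was higher in blood monocytes of tumor-bearing mice (0.213 ± 0.0654 RPKM, SD, n = 4) than in healthy stroma (0.104 ± 0.0879 RPKM, SD, n = 4), with overlapping libraries. In bulk samples, fewer cells of a type and less RNA per cell cannot be told apart.

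**Figure D1:**
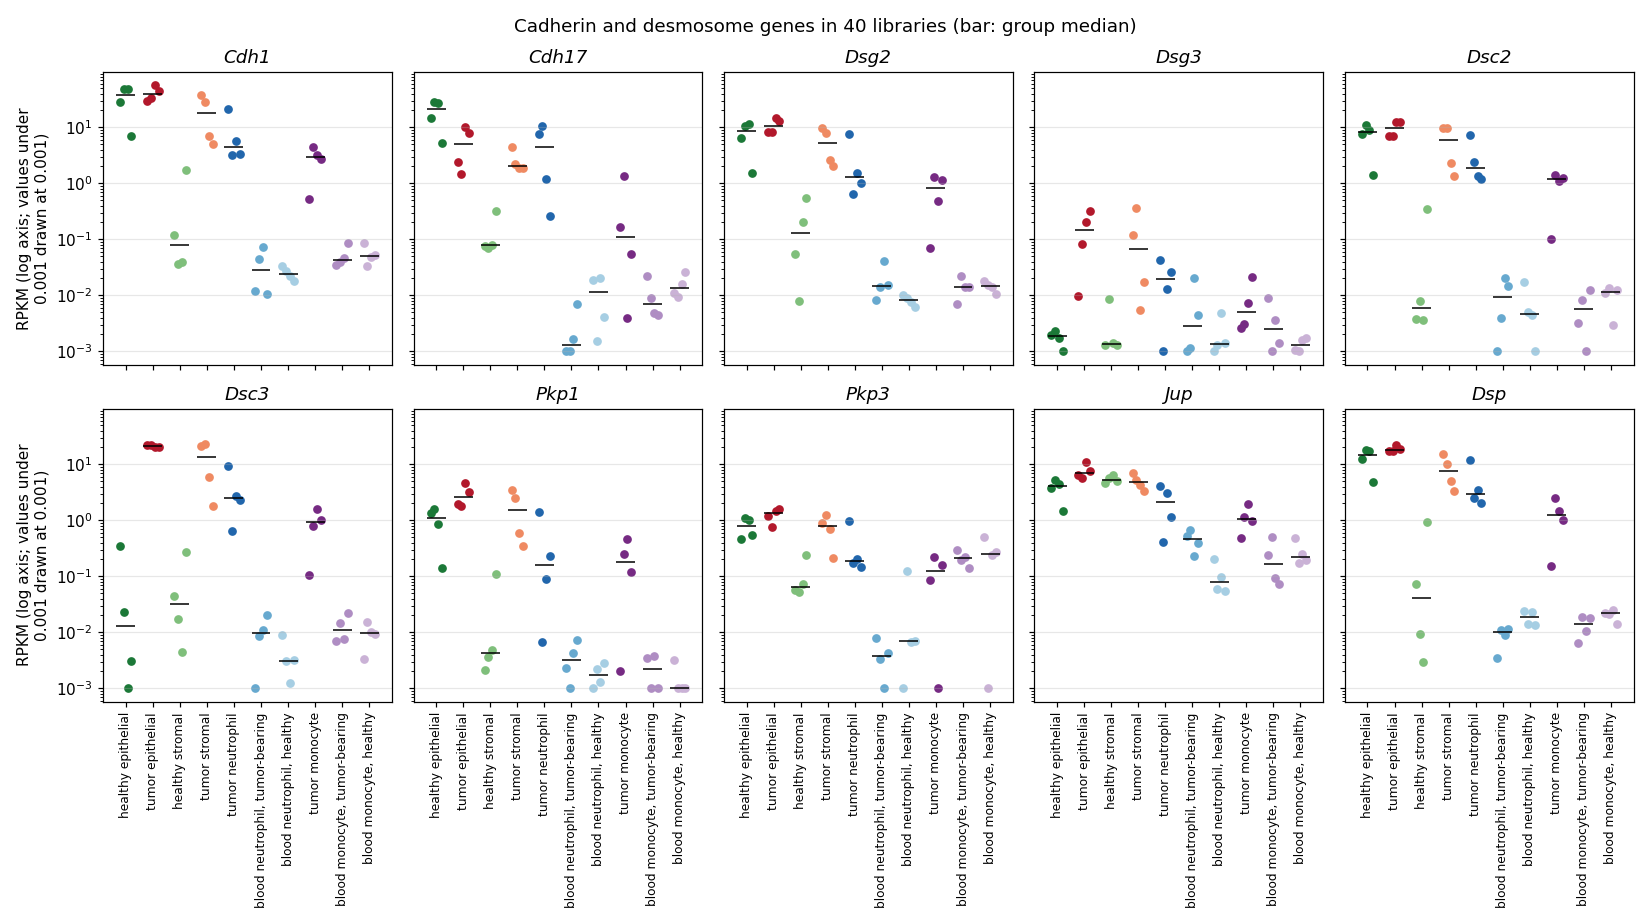
RPKM of each member in each library (log axis, values under 0.001 drawn at 0.001), 4 points per group with a bar at the group median. Dsc3 sits between 20 and 22.5 RPKM in tumor epithelium and at or below 0.35 RPKM in healthy epithelium, while Cdh1, Dsg2, Dsc2 and Dsp overlap between the 2 epithelia.

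The first comparison asked how the members differ between tumor and healthy epithelium. Of the 10 members, 9 passed the filter on low counts, Dsc3 rose, Cdh17 fell and the other 7 were not called. A gene was called at a Benjamini-Hochberg adjusted p under 0.05 by edgeR's quasi-likelihood test together with an absolute log2 fold change above 1.5, a rule met by 15.4% of the 16085 genes tested. The median log2 fold change was -0.05 over the 9 tested members and -0.01 over all genes tested.

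Among the cadherins of the adherens junction and the intestinal surface, Cdh17 changed and Cdh1 did not pass the test. Cdh17 lies on mm10 chromosome 4 from 11758147 to 11817895. It measured 14.5, 28.4, 27.4 and 5.34 RPKM in healthy epithelial replicates 1 to 4 and 2.37, 1.48, 10.2 and 7.79 RPKM in tumor epithelial replicates 1 to 4. The groups overlapped only through healthy replicate 4, the library with the most mitochondrial counts, which lay between the tumor libraries. After TMM scaling, which adjusts for the composition of the libraries, Cdh17 fell by 2.44 on the log2 scale (SE 0.441, Benjamini-Hochberg adjusted p = 0.00272), or 5.43-fold. The call was lost when all 40 libraries shared one fit (adjusted p = 0.0745 by edgeR) and by limma on log2(RPKM + 1) (adjusted p = 0.0522).

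Cdh1, on chromosome 8 from 106603351 to 106670246, measured 28.8, 48.5, 48.2 and 7.03 RPKM in healthy epithelium and 29.0, 33.4, 56.6 and 44.7 RPKM in tumor epithelium. Of the tumor libraries 3 lay within the range of the healthy ones and replicate 3 lay above it. Its log2 fold change of -0.17 had an interval of -0.52 to 0.18 (2 SE on either side; adjusted p = 0.536 by edgeR). A change of Cdh1 as large as that of Cdh17 lies outside that interval.

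Of the desmosomal cadherins, Dsc3 showed the clearest difference between the epithelia. Dsc3, on chromosome 18 from 19960930 to 20002351, had 102, 9, 0 and 2 counts in healthy epithelial replicates 1 to 4 and 6616, 7295, 9532 and 10692 counts in tumor epithelial replicates 1 to 4. In RPKM the healthy libraries were at 0.35, 0.023, 0.000163 and 0.00302 and the tumor libraries at 21.7, 22.5, 20.5 and 20. The groups did not overlap, and the lowest tumor library was far above healthy replicate 1, the highest of the healthy ones. Dsc3 rose by a log2 fold change of 7.28 (SE 1.19, adjusted p = 0.00150 by edgeR), or 156-fold. With so few healthy counts, Dsc3 passed the filter through the tumor libraries, and the fold depends on those few counts. Its log2 value was 4.35 on the log2(RPKM + 1) scale and 9.62 by limma-voom, and it ranged from 6.82 to 10.47 with 1 library left out, the highest without healthy replicate 1. The call held in 9 of 9 alternatives that kept Dsc3 and in 8 of 8 fits with 1 library left out. Under the floor of 10 counts in every library Dsc3 could not be tested. Among all 10 members Dsc3 had the second highest mean RPKM in tumor epithelium, 21.2 ± 1.12 (SD, n = 4), behind Cdh1.

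Dsg3, on chromosome 18 from 20510274 to 20547459, is the desmoglein of stratified epithelium and stayed close to the detection limit. It had 0, 1, 0 and 0 counts in healthy epithelium and 2, 21, 73 and 131 counts in tumor epithelium, and the highest tumor library reached 0.316 RPKM. It did not pass the filter on low counts in the fit of these 8 libraries. The unfiltered table and the fit of all 40 libraries kept it, and there edgeR called it higher (log2 6.31 to 6.37, adjusted p = 0.00602 to 0.00778). So did the 5 fits that kept it with 1 library left out, at log2 values of 5.97 to 8.16, which depend on the prior count because the healthy libraries hold 1 count in all. The ratio of the summed counts, scaled by library size, was 127 with an exact counting interval of 22.6 to 5046 (95%), which covers counting error only and rests on 1 healthy count.

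Dsg2 and Dsc2, the desmosomal cadherins of simple epithelium, did not pass the test. Dsg2, on chromosome 18 from 20558074 to 20604521, measured 6.55, 10.6, 11.5 and 1.51 RPKM in healthy epithelium and 8.10, 8.41, 14.6 and 13.1 RPKM in tumor epithelium. Dsc2, on chromosome 18 from 20030633 to 20059554, measured 7.45, 11, 8.95 and 1.40 RPKM in healthy epithelium and 6.95, 6.96, 12.4 and 12.2 RPKM in tumor epithelium. Both genes overlapped between the groups, with healthy replicate 4 the lowest library. The log2 fold change was 0.09 for Dsg2 (interval -0.26 to 0.44, adjusted p = 0.760 by edgeR) and -0.05 for Dsc2 (interval -0.44 to 0.33, adjusted p = 0.879 by edgeR). In the Dsg2 annotation, 3.61% of 50-base stretches also occur in other genes, and Gm16090 overlaps it on the other strand.

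None of the plaque genes was called, and of them Pkp1 alone had an adjusted p under 0.05. Pkp1, the plakophilin of stratified epithelium on chromosome 1 from 135871395 to 135919207, measured 1.36, 1.58, 0.874 and 0.143 RPKM in healthy epithelium and 1.97, 1.82, 4.55 and 3.22 RPKM in tumor epithelium. All 4 tumor libraries were above all 4 healthy ones. The log2 fold change of 1.05 (SE 0.330, adjusted p = 0.0437 by edgeR) stayed under the fold threshold, so Pkp1 was not called. Gm36938 overlaps Pkp1 on the same strand. Pkp3, the plakophilin on chromosome 7 from 141078218 to 141090510, measured 0.456, 1.09, 1.01 and 0.542 RPKM in healthy epithelium and 1.20, 0.759, 1.48 and 1.59 RPKM in tumor epithelium, which overlap. Its log2 fold change was -0.20 (interval -1.06 to 0.67, adjusted p = 0.793 by edgeR).

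Plakoglobin (Jup) and desmoplakin (Dsp), the core plaque proteins, did not pass the test in epithelium either. Jup, on chromosome 11 from 100368958 to 100397763, measured 3.73, 5.16, 4.46 and 1.48 RPKM in healthy epithelium and 6.51, 5.77, 10.8 and 7.66 RPKM in tumor epithelium. In RPKM the groups did not overlap, while the log2 fold change on the edgeR scale was 0.36 (interval -0.02 to 0.75, adjusted p = 0.210). Dsp, on chromosome 13 from 38151294 to 38198577, measured 12.5, 17.7, 17.3 and 4.79 RPKM in healthy epithelium and 17.2, 17.4, 21.7 and 18.4 RPKM in tumor epithelium, with the highest 2 healthy libraries inside the tumor range. Its log2 fold change was -0.10 (interval -0.46 to 0.27, adjusted p = 0.760 by edgeR). Gm10129 overlaps Dsp on the other strand, and 4.66% of the 50-base stretches of Dsp also occur in another gene.

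Dsp and Jup also part ways in stroma, as described below, and the 250 bases before their start sites are shown for that contrast, in lower case with GC boxes in capitals. The sequences are from RefSeq, build GRCm38.p6, read 5′ to 3′ along the gene. The Jup window is chr11:100397791-100398040 on the minus strand and the Dsp window is chr13:38151044-38151293 on the plus strand. Of the 10 members, these 2 matched an entry of the promoter table.
Jup: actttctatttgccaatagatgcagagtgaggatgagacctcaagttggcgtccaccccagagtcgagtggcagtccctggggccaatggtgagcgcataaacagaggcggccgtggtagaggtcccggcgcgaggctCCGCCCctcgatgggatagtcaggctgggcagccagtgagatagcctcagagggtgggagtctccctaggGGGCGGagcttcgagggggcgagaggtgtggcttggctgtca
Dsp: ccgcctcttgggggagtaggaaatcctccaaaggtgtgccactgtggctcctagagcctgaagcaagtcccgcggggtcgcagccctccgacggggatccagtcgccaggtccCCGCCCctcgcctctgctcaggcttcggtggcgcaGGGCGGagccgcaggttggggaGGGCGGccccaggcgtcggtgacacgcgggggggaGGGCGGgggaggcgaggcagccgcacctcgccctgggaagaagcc
The Dsp window held 4 GC boxes and 72.4% G and C, and the Jup window 2 GC boxes and 62.0%, against a median of 52.4% over 32851 promoter windows of the table. A GC box was the letters GGGCGG on either strand, which 32.7% of those windows held. Neither window held an E-box with the letters CAGGTG on either strand, present in 17.2% of the windows, and the Jup window alone held TTTATG on either strand, a match to the Cdx site, present in 10.8%, at a place that overlaps no GC box. Such matches describe the letters of these windows and nothing more.

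**Figure D2:**
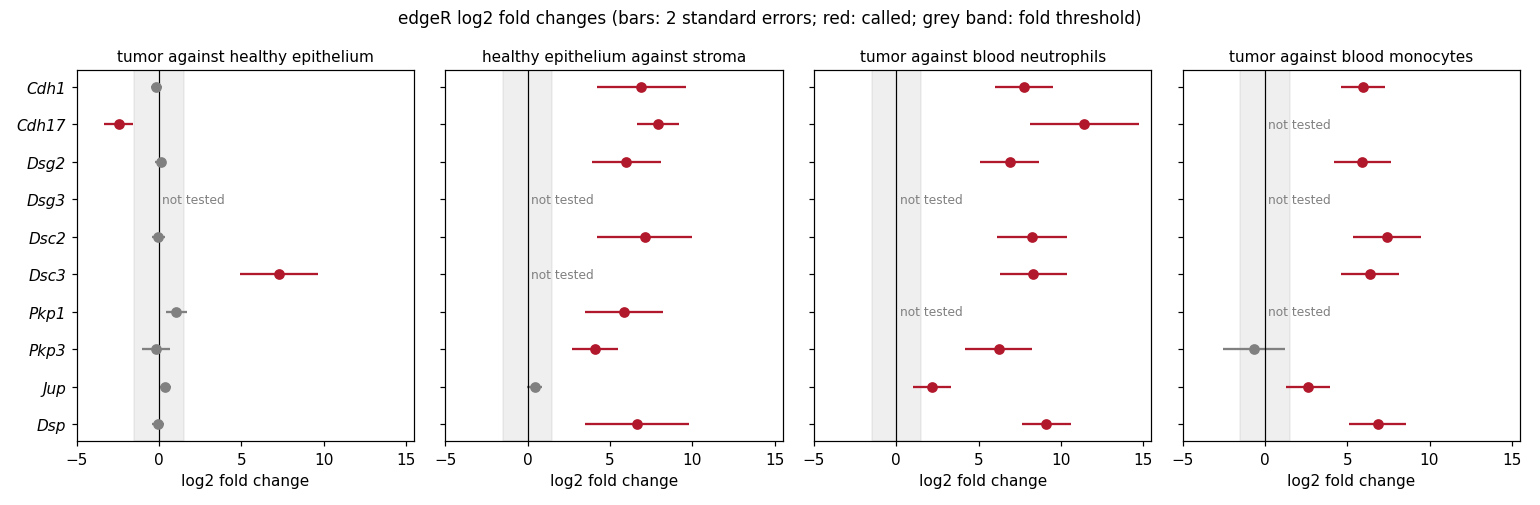
edgeR log2 fold change of each member (horizontal axis) in 4 comparisons, with bars of 2 SE, red where called and grey where not, and a grey band inside the fold threshold. In epithelium Dsc3 lies at 7.28 and Cdh17 at -2.44 while the other tested members sit inside or across the band. The low-count members are marked as not tested.

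Each member was also set against Cdh1 within the same library. A plain RPKM ratio of this kind does not depend on the mitochondrial share. The RPKM ratio of Cdh17 to Cdh1 was 0.505, 0.586, 0.568 and 0.761 in healthy epithelial replicates 1 to 4 and 0.0818, 0.0442, 0.18 and 0.174 in tumor epithelial replicates 1 to 4. With that scaling the Cdh17 groups no longer overlapped. For the log2 differences, 0.01 RPKM was first added to both genes. All healthy Dsg3 values (at most 0.0023 RPKM) and Dsc3 in healthy replicates 3 and 4 lay below that amount. The Dsc3 and Dsg3 differences, and the p-value of Dsg3, therefore depend on that amount and on library scaling. The log2 difference was -2.53 for Cdh17, 8.63 for Dsc3, 1.28 for Pkp1 and 0.27 for Dsg2. Each had a 2-sided exact permutation p = 0.0286, the smallest that 4 against 4 libraries allow. For Jup the difference was 0.56 (exact permutation p = 0.114), for Dsg3 2.60 (exact permutation p = 0.0571), and for Dsc2, Pkp3 and Dsp it lay between 0.08 and 0.14, with exact permutation p-values of 0.4 or more. These 9 p-values are unadjusted, and this scaling was added after the data had been seen.

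The balance of the 2 desmocollins turned over between the epithelia. The RPKM ratio of Dsc3 to Dsc2 was 0.0469, 0.0021, 1.82e-05 and 0.00216 in healthy epithelial replicates 1 to 4 and 3.12, 3.23, 1.65 and 1.64 in tumor epithelial replicates 1 to 4. Dsc3 was thus the lower desmocollin in all 4 healthy libraries and the higher one in all 4 tumor libraries. The ratio of Dsg2 to Dsc2 stayed between 0.88 and 1.28 in the 8 epithelial libraries. The ratio of Dsp to Jup was 3.23 to 3.87 in healthy epithelium and 2.01 to 3.01 in tumor epithelium.

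**Figure D3:**
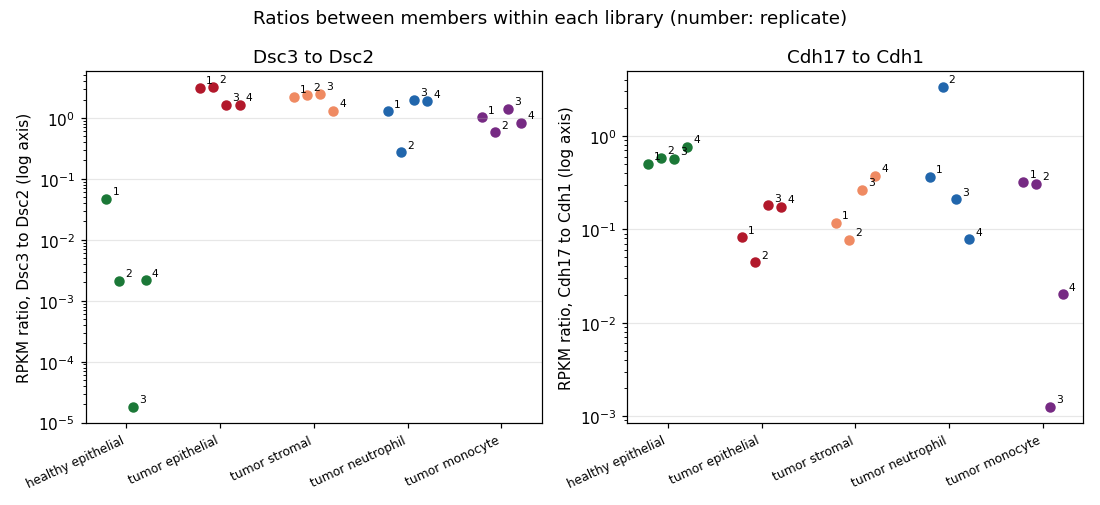
RPKM ratio of Dsc3 to Dsc2 and of Cdh17 to Cdh1 in each library (log axes), points numbered by replicate. All 4 tumor epithelial libraries have a Dsc3 to Dsc2 ratio above 1.6 and all 4 healthy ones a ratio under 0.05. Tumor neutrophil replicate 2 stands at a Cdh17 to Cdh1 ratio of 3.35.

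Other genes of the junctions were also compared between tumor and healthy epithelium, where 15.4% of all genes were called in either direction. The lists are too short to set their counts above or below that share. Of 12 adherens junction genes, all tested, 1 rose and none fell, the median log2 fold change being 0.45. The 1 was Arvcf, a relative of p120 catenin, with a log2 fold change of 2.38 (SE 0.647, adjusted p = 0.0235 by edgeR). Of 9 other desmosome and cornified envelope genes 5 were tested and 1 rose, with a median of -0.05. It was Ppl, which encodes periplakin and rose by 2.41 on the log2 scale (SE 0.241, adjusted p = 9.04e-05 by edgeR). Of 5 keratins of simple epithelium, Krt20, a keratin of differentiated surface cells, fell by 3.88 on the log2 scale (SE 0.472, adjusted p = 0.000279 by edgeR) and none rose, with a median of -0.33.

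The other cadherins of tissue cells moved in both directions. Of 10, 8 were tested, 3 rose and 3 fell, where 15.4% of all genes were called in either direction. The median log2 fold change was 0.25. The genes that fell were Cdhr5 (log2 -3.82, adjusted p = 0.000163), Cdhr2 (log2 -4.34, adjusted p = 0.00111) and Cdhr1 (log2 -5.46, adjusted p = 0.00700) by edgeR, and Cdhr2 and Cdhr5 are cadherins of the microvilli of the brush border. Those that rose were Cdh13 (log2 6.37, adjusted p = 0.000567), Cdh5 (log2 4.62, adjusted p = 0.00563) and Cdh11 (log2 2.23, adjusted p = 0.0406) by edgeR. Cdh5, known as the cadherin of endothelial cells, measured 3.94 to 4.26 RPKM in the 4 tumor epithelial libraries and 0.00339 to 0.205 RPKM in the healthy ones. The 5 other endothelial markers summed to only 0.125 to 0.642 RPKM in the same tumor libraries, with Tie1 at no more than 0.0221 RPKM and Cldn5 at 0 to 0.162 RPKM. Cdh13 measured 2.70 to 3.26 RPKM in tumor epithelium and 0.0021 to 0.0852 RPKM in healthy epithelium.

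Because Dsc3, Dsg3 and Pkp1 are known from stratified epithelium, 11 markers of squamous epithelium were examined too. Of the 8 tested, 5 had a positive log2 fold change. By edgeR 2 were called higher, Krt6a (log2 7.03, adjusted p = 0.000163) and Krt4 (log2 2.72, adjusted p = 0.00496), and none was called lower. Krt13 went down (log2 -1.155, adjusted p = 0.027 by edgeR) but stayed under the fold threshold. The list summed to 11.1 to 42.5 RPKM in tumor epithelium and 3.68 to 16.2 RPKM in healthy epithelium. Of its basal members, Krt14 measured 3.29 to 14.1 RPKM in tumor epithelium and 1.01 to 4.41 RPKM in healthy epithelium (log2 0.66, adjusted p = 0.141 by edgeR). Krt5 measured 0.435 to 1.35 RPKM in tumor and 0.0983 to 0.553 RPKM in healthy epithelium. Trp63 measured 0.00147 to 0.0528 RPKM in tumor and 0.000192 to 0.0029 RPKM in healthy epithelium. Krt15 went the other way (log2 -0.934, adjusted p = 0.157 by edgeR). The part of such cells in the member levels was not tested. Of the 12 epithelial markers, 6 fell and none rose, among them Fabp2 (log2 -5.86, adjusted p = 1.2e-05 by edgeR), a fatty acid binding protein of enterocytes. Of all genes tested, 15.4% were called in either direction, the share to set beside the squamous and the epithelial list. Of 6 known repressors of Cdh1, Zeb1 (log2 -1.51, adjusted p = 0.411 by edgeR) and Zeb2 (log2 -1.31, adjusted p = 0.301 by edgeR) were the 2 with enough counts to be tested.

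Healthy epithelium and healthy stroma were compared to see how far the members mark epithelium. Of the 8 tested members 7 were higher in epithelium and 1, Jup, was not called, against 11.5% of all 18468 genes called higher. Cdh1 measured 0.118, 0.0358, 0.0392 and 1.70 RPKM in healthy stromal replicates 1 to 4, and Dsp 0.0715, 0.0094, 0.00293 and 0.918 RPKM. Stromal replicate 4 was the highest for both, and it also had the most epithelial marker RNA, 24.4 RPKM against 6.34 to 11.6 RPKM in the others. The log2 fold change from stroma to epithelium was 6.90 for Cdh1 (SE 1.35, adjusted p = 0.00324), 7.93 for Cdh17 (SE 0.634, adjusted p = 3.8e-05) and 6.66 for Dsp (SE 1.58, adjusted p = 0.00860) by edgeR. Stromal counts were low, so most of these members passed the filter through the epithelial libraries. DESeq2 called 4 and gave no adjusted p for Cdh1, Dsc2 and Dsp, whose log2 fold changes there were 6.87, 7.07 and 6.63.

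Jup was at similar levels in the 2 compartments. It measured 4.58, 5.63, 6.50 and 4.96 RPKM in healthy stroma, and its log2 fold change from stroma to epithelium was 0.42 (interval -0.05 to 0.88, adjusted p = 0.196 by edgeR). The sign of that value is opposite to the order of the mean RPKM. Plakoglobin is also known from junctions outside desmosomes, including those of endothelial cells. The ratio of Dsp to Jup was 0.000451 to 0.185 in healthy stroma, below every epithelial library. All 6 repressors of Cdh1 were lower in epithelium than in stroma, with a median log2 fold change of -5.89, against 19.4% of all genes called lower. Zeb1 measured 7.57 to 19.1 RPKM and Zeb2 8.23 to 13.5 RPKM in healthy stroma.

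Tumor stroma held far more member RNA than healthy stroma, and more in the 2 libraries that went against their label. Cdh1 measured 38.5, 28.7, 7.08 and 4.96 RPKM in tumor stromal replicates 1 to 4, and Dsc3 21.6, 23.3, 5.90 and 1.81 RPKM. Replicates 1 and 2 reached the level of tumor epithelium, except that Cdh1 in replicate 2 lay just under the lowest tumor epithelial library (29.0 RPKM). For both genes replicates 3 and 4 were lower yet above all 4 healthy stromal libraries. Of 9 tested members 7 rose from healthy to tumor stroma, against 3.39% of 19081 genes called higher, led by Dsc3 (log2 7.68, SE 1.49, adjusted p = 0.0163) by edgeR. Several were near 0 in healthy stroma, Dsc2 with 2, 3, 1 and 120 counts and Dsc3 with 24, 7, 1 and 95, and passed the filter through the tumor libraries, 2 of which went against their label. Without tumor stromal replicates 1 and 2 the number fell to 2, against 561 of 20786 genes called higher. These were Cdh17 (log2 4.04, adjusted p = 0.0176) and Dsc3 (log2 5.76, adjusted p = 0.0376) by edgeR. The number of called members also fell to 1 without healthy stromal replicate 1, to 2 without healthy replicate 2 or 3 or without tumor replicate 1 or 2, and to 4 without tumor replicate 3. In those fits with 1 library left out the log2 fold change stayed at 5.30 to 8.68 for Cdh1 and 5.88 to 10.46 for Dsc2. Jup did not pass the test, at a log2 value of 0.27 (interval -0.31 to 0.84, adjusted p = 0.617 by edgeR). In replicates 3 and 4 the epithelial markers stood at 24.5% and 14.1% of their tumor epithelial mean, Cdh1 at 17.3% and 12.1%, and Dsc3 at 27.8% and 8.56%. Cdh17 stood higher, at 34.3% and 34.1%, and Jup at 56.0% and 44.2%. The part of epithelial RNA in these values was not tested.

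The desmocollin balance varied among the other sorted tumor cells. The ratio of Dsc3 to Dsc2 was 2.24, 2.42, 2.50 and 1.32 in tumor stromal replicates 1 to 4, 1.29, 0.273, 2.00 and 1.88 in tumor neutrophils, and 1.03, 0.581, 1.42 and 0.838 in tumor monocytes. Dsc3 was the higher desmocollin in 4 of 4 tumor stromal, 3 of 4 tumor neutrophil and 2 of 4 tumor monocyte libraries. Healthy stroma had too few Dsc2 counts for a ratio in replicates 1 to 3, with 24, 7 and 1 counts of Dsc3 against 2, 3 and 1 of Dsc2, and a ratio of 0.788 in replicate 4. A ratio above that of healthy epithelium was therefore not particular to tumor libraries. Dsg3 had 131 counts in tumor stroma against 3 in healthy stroma, a scaled ratio of 66.6 with an exact counting interval of 22.3 to 327.

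Between tumor epithelium and tumor stroma edgeR called 0 of 10 members, against 0.0294% of 16985 genes. At an unadjusted p under 0.05 there were 2, and limma-voom and DESeq2 also called 0. Without tumor stromal replicates 1 and 2, 7 members were higher in tumor epithelium, against 6.62% of 19784 genes called higher, with Cdh1 at a log2 fold change of 2.89 (SE 0.233, adjusted p = 9.32e-05 by edgeR) and Dsc3 at 2.66 (SE 0.475, adjusted p = 0.00434 by edgeR). The library titles give animal numbers, and 2 animals gave both an epithelial and a stromal library. With the animal as a block, which uses those 2 pairs, 6 members were called higher in epithelium, Cdh1 at 2.65 (adjusted p = 0.00152 by edgeR). Of all 16985 genes, 697 were called higher in that fit. Neither of the 2 paired stromal libraries was replicate 1 or 2. The block fit thus gives no separate support beside the fit that left out replicates 1 and 2.

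The change from healthy to tumor differed between epithelium and stroma for 7 of 10 members, against 7.93% of 20901 genes that passed in that direction. All 7 had the more positive change in stroma, while in epithelium Cdh17 fell and the others were not called. Several were near 0 in healthy stroma, Pkp1 with 1, 1, 1 and 36 counts, and passed the filter through the other groups. The difference of log2 changes was -7.02 for Cdh17 (SE 0.840, adjusted p = 0.000115 by edgeR) and -5.91 for Cdh1 (SE 1.44, adjusted p = 0.0118 by edgeR). For Dsc3, which was higher in tumor than in healthy libraries of both cell types, the difference was -0.41 (interval -3.79 to 2.97, adjusted p = 0.910 by edgeR). Without tumor stromal replicates 1 and 2 the number fell to 2, Cdh17 and Dsg2, against 1407 of 23068 genes that passed in that direction. Replicates 3 and 4, which stayed in, held epithelial markers at 24.5% and 14.1% of their tumor epithelial mean.

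Member RNA was also present in neutrophils and monocytes sorted from tumors, beside epithelial marker RNA. Cdh1 measured 20.9, 3.15, 5.60 and 3.34 RPKM in tumor neutrophil replicates 1 to 4 and 0.012, 0.0441, 0.073 and 0.0104 RPKM in blood neutrophils of tumor-bearing mice. Dsp measured 12.1, 2.49, 3.50 and 2.07 RPKM in tumor neutrophils and no more than 0.0114 RPKM in those blood libraries. The groups did not overlap for either gene, and replicate 1 was the highest tumor library. That replicate also had the lowest neutrophil markers of its group, 1904 RPKM in a range of 1904 to 12237 RPKM. Those blood libraries held 15242 to 19946 RPKM. All 8 tested members were higher in tumor neutrophils, against 11.9% of 13674 genes called higher, and all but Jup had at most 17 counts in any of those blood libraries, so they passed the filter through the tumor libraries. The log2 fold change was 7.77 for Cdh1 (SE 0.889, adjusted p = 0.000633), 9.12 for Dsp (SE 0.746, adjusted p = 0.000188) and 8.33 for Dsc3 (SE 1.02, adjusted p = 0.000772) by edgeR. For Cdh17, with 5128 counts against 2, the scaled ratio was 2575 with an exact counting interval of 713 to 21269. Tumor replicates 1 and 2 held 1876 and 2849 of those counts. Without them 9 members were called, against 2194 of 15468 genes called higher in that fit, and the log2 fold change of Cdh17 went from 11.41 to 8.30.

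Epithelial markers in tumor neutrophils summed to 79.8%, 13.5%, 14.8% and 4.64% of their mean in tumor epithelium in replicates 1 to 4, and all 12 were detected. Cdh1 stood at 51.0%, 7.71%, 13.7% and 8.16% of its tumor epithelial mean, and Dsp at 64.7%, 13.3%, 18.7% and 11.1%. Both were highest in replicate 1, as was the marker list. Cdh17 stood at 139%, 194%, 21.6% and 4.79%, and Dsc3 at 44.5%, 3.05%, 12.7% and 10.8%. Replicate 2 therefore combined the highest Cdh17 of all tumor neutrophil libraries, 10.6 RPKM, with the lowest Dsc3, 0.646 RPKM. Its Wnt targets summed to 1.88 RPKM, the lowest of the 4. Its ratio of Cdh17 to Cdh1, 3.35, was above that of every epithelial library. The part of epithelial RNA in the member levels was not tested.

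Set directly against tumor epithelium, 2 of 10 members were lower in tumor neutrophils, against 2.09% of 16327 genes called lower. These were Dsc3 (log2 -1.91, SE 0.508, adjusted p = 0.0206) and Cdh1 (log2 -1.60, SE 0.457, adjusted p = 0.0296) by edgeR. With the animal as a block, 3 animals having given both libraries, Dsc3 alone was called (log2 -1.64, adjusted p = 0.0475 by edgeR), against 266 of 16327 genes called lower. Cdh1 was not called there, although its log2 value of -1.75 was no smaller (adjusted p = 0.0947 by edgeR). The number ranged from 0 to 6 when single libraries were left out, with 6 without tumor neutrophil replicate 1, 0 without neutrophil replicate 3 or 4 or epithelial replicate 2, and 1 without epithelial replicate 1, 3 or 4.

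In tumor monocytes, too, most tested members were above their level in blood. Cdh1 measured 0.521, 4.49, 3.17 and 2.73 RPKM in tumor monocyte replicates 1 to 4 and 0.0346 to 0.0853 RPKM in blood monocytes of tumor-bearing mice. Dsc3 measured 0.104, 0.806, 1.59 and 1.03 RPKM and 0.00693 to 0.0221 RPKM, respectively. Tumor replicate 1 was the lowest for both, and its epithelial markers stood at 0.677% of tumor epithelium against 17.1%, 4.70% and 4.32% in replicates 2 to 4. Of 7 tested members 6 were higher in tumor monocytes, against 7.76% of 15280 genes called higher, and Cdh1, Dsg2, Dsc2, Dsc3 and Dsp had at most 21 counts in any of those blood libraries, so they passed the filter through the tumor libraries. The log2 fold change was 5.96 for Cdh1 (SE 0.680, adjusted p = 0.000260 by edgeR) and 6.38 for Dsc3 (SE 0.886, adjusted p = 0.000890 by edgeR). Limma on log2(RPKM + 1) called 1 of the 7. The exception was Pkp3, which measured 0.297, 0.198, 0.22 and 0.139 RPKM in blood monocytes and 0.0854, 0.22, 0 and 0.161 RPKM in tumor monocytes (log2 -0.67, interval -2.56 to 1.22, adjusted p = 0.682 by edgeR).

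**Figure D4:**
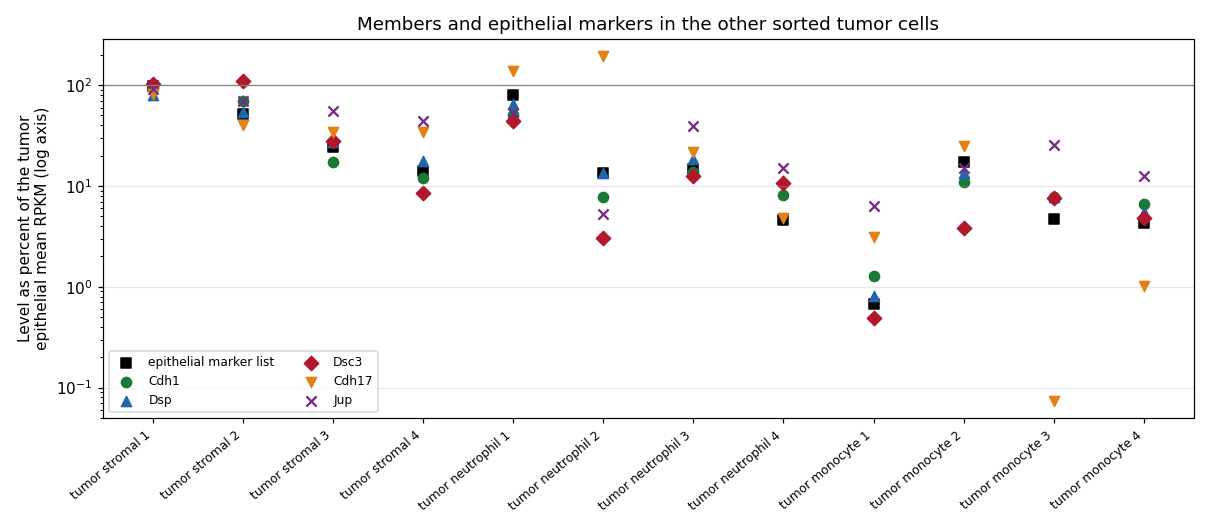
Level of 5 members and of the epithelial marker list in each sorted tumor stromal, neutrophil and monocyte library, as a percentage of the tumor epithelial mean RPKM (log axis, grey line at 100%). Tumor stromal replicate 1 lies near 100% for all of them, and in tumor neutrophil replicate 2 Cdh17 is at 194% while Dsc3 is at 3.05%.

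Finally, the tumor against blood difference of neutrophils was set against that of monocytes. By their titles 3 animals gave both tumor neutrophils and tumor monocytes and 3 gave both kinds of blood cells, which this fit of 16 libraries treats as independent. It differed for 1 of 9 tested members, against 2.73% of 17465 genes that passed in that direction. This was Pkp3, with a difference of log2 changes of 6.78 (SE 1.45, adjusted p = 0.0150 by edgeR). Pkp3 measured 0.98, 0.17, 0.206 and 0.147 RPKM in tumor neutrophils and no more than 0.008 RPKM in their blood counterparts, where its highest library had 2 counts. On the log2(RPKM + 1) scale the call was lost (adjusted p = 0.110 by limma).

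Blood cells of tumor-bearing and healthy mice held few counts of the members. In neutrophils Jup was the 1 member with enough counts to be tested, and it was called higher, against 1.79% of 13360 genes called higher. It measured 0.533, 0.662, 0.233 and 0.393 RPKM in blood neutrophils of tumor-bearing mice and 0.203, 0.0598, 0.0976 and 0.0548 RPKM in those of healthy mice. The groups did not overlap, and the log2 fold change was 2.14 (SE 0.494, adjusted p = 0.0306 by edgeR). Neutrophil markers also differed, at 15242 to 19946 RPKM in tumor-bearing and 3687 to 8468 RPKM in healthy mice. The part of that difference in the Jup values was not tested. The call was lost without tumor-bearing replicate 1, 2 or 4 or healthy replicate 2, 3 or 4, at adjusted p-values of up to 0.0940. In monocytes 3 members were tested, and edgeR called 0 of them, against 0.209% of 15313 genes. There were also 0 at an unadjusted p under 0.05, and limma-voom and DESeq2 called 0. Jup had a log2 fold change of -0.16 there (interval -1.42 to 1.10, adjusted p = 0.964 by edgeR).

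The genes most like Cdh1, Cdh17 and Dsp across the 40 libraries were looked up. On the log2(RPKM + 1) scale and among 8203 genes with a mean of at least 1 RPKM, the genes most like Cdh1 were Epcam (Pearson r = 0.993), Krt8 (r = 0.990) and Ehf (r = 0.985). For Dsp they were Epcam (r = 0.992), Krt8 (r = 0.992) and Ehf (r = 0.985). For Cdh17 they were Muc13 (r = 0.988), Atp10b (r = 0.979) and Prss32 (r = 0.976), so its nearest genes differed from those of Cdh1. Among the members, r with Cdh1 was 0.99 for Dsg2 but 0.77 for Jup, 0.76 for Dsc3 and 0.56 for Dsg3, and r between Cdh17 and Dsc3 was 0.41. The libraries share cell types and epithelial content, so these values describe the pattern over groups and carry no test.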

How the data were processed

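RNA of 200000 to 500000 sorted cells per library was amplified to cDNA and sequenced. The authors mapped the reads to mm10 with Bowtie 2 and deposited expected counts per Ensembl gene, and RPKM values scaled to gene length and mapped reads. The expected counts deposited were mostly not whole (99.6% of nonzero values) and were rounded. Use of strand is not given in the sources used here, so overlapping genes are uncertain. Positions came from GENCODE M21 and promoter sequences from RefSeq (GRCm38.p6).

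Each comparison used the 8 libraries of its 2 groups, filterByExpr, TMM scaling and robust quasi-likelihood tests (edgeR 4.0.16, run under R 4.3.3), with Benjamini-Hochberg adjustment over all genes tested. Differences of changes used 16 libraries and adjusted p under 0.05 alone. SE is the absolute log2 fold change over the root of F. Alternatives were limma-voom 3.58.1, DESeq2 1.42.0, RLE, an unfiltered table, a floor of 10 counts per library, all 40 libraries in one fit, no mitochondrial genes, no fold threshold, a replicate block, limma on log2(RPKM + 1) and log2(RPKM + 0.1), and leaving out each library. The code was tested on simulated data. Titles give animal numbers. The labels give 2 tumor stromal libraries the replicate number 3, and one of them is called replicate 4 here. Tumor epithelium shared 2 animals with tumor stroma and 3 with tumor neutrophils, and healthy epithelium with healthy stroma, tumor with blood neutrophils and tumor with blood monocytes shared 1 each. Fits without an animal block treat these libraries as independent.

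Members and lists were chosen with earlier results of these data known. Named genes were the 10 members, Apc, up to 3 called genes per list and direction by smallest adjusted p in epithelium, up to 4 markers per marker list (with Krt13 in addition) and the 3 genes most correlated with Cdh1, Cdh17 and Dsp. Lists without a result in the text (smooth muscle, monocyte, macrophage and lymphocyte markers) summed in epithelial libraries to at most 3.26, 2.32, 1.28 and 0.963 RPKM. Counting intervals and p-values cover these libraries only.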

Additional observations from a re-analysis of the deposited data

Results flagged for a closer look

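In groups of 4 libraries, the gap of the lowest or highest library to its nearest other was divided by the group's range. A library was singled out when that share exceeded Dixon's 95% critical value, which chance gives in about 1 in 20 groups. Of 61 combinations of member and group with at least 50 counts, 14 were singled out. Healthy stromal replicate 4 stood high for 6 members, with Cdh1 at 1.70, Cdh17 at 0.323, Dsc2 at 0.342, Dsc3 at 0.27, Pkp3 at 0.235 and Dsp at 0.918 RPKM. Tumor neutrophil replicate 1 stood high for 5, with Cdh1 at 20.9, Dsg2 at 7.60, Pkp1 at 1.41, Pkp3 at 0.98 and Dsp at 12.1 RPKM. The others were Cdh17 in tumor stromal replicate 1 at 4.50 RPKM, Cdh17 in tumor monocyte replicate 2 at 1.37 RPKM and Dsc3 in healthy epithelial replicate 1 at 0.35 RPKM.

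The change from healthy to tumor differed between epithelium and stroma by edgeR for 7 members, with log2 differences of -5.91 for Cdh1, -7.02 for Cdh17, -5.08 for Dsg2, -6.43 for Dsc2, -5.21 for Pkp1, -3.42 for Pkp3 and -5.48 for Dsp. Of these, Cdh17 and Dsg2 still passed without tumor stromal replicates 1 and 2. For Pkp3 the tumor against blood difference was larger in neutrophils than in monocytes, by 6.78 on the log2 scale.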

How the results depend on the processing

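Of 125 recomputed counts of called members, leaving aside single left-out libraries, 98 were within 1.5 times the value reported. With at least 10 counts in every library, fewer members could be tested and the counts were 3 (healthy epithelium against stroma), 2 (tumor against blood monocytes), 1 (tumor against blood neutrophils), 1 (tumor against healthy epithelium), 3 (tumor against healthy stroma), 5 (tumor neutrophils against tumor epithelium), 3 (epithelium against stroma changes) and 0 (neutrophil against monocyte changes). Limma on log2(RPKM + 1) gave 1 for tumor against blood monocytes, 1 for tumor against healthy epithelium, 6 for tumor neutrophils against tumor epithelium, 3 and 0 for the 2 differences of changes and 0 for blood neutrophils, and on log2(RPKM + 0.1) 8 for tumor neutrophils against tumor epithelium and 0 for blood neutrophils. DESeq2 gave 4 for healthy epithelium against stroma, where 3 members had no adjusted p and kept their fold changes, and 4 for tumor neutrophils against tumor epithelium, as did limma-voom for the latter. One fit of all 40 libraries gave 0 for the latter and 2 for the neutrophil against monocyte changes. Without tumor stromal replicates 1 and 2, an alternative added after seeing the data, the counts were 2 against healthy stroma, 7 against tumor epithelium and 2 for the difference of changes. The cause was not tested.

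Leaving out 1 library gave 0 to 1 called member in blood neutrophils, 1 to 8 in tumor against healthy stroma, 0 to 6 in tumor neutrophils against tumor epithelium, and 1 to 2 for the neutrophil against monocyte changes.

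As to pairing, libraries with the same replicate number did not deviate together in tumor against healthy epithelium (r from -0.05 to -0.00). Those groups came from different mice, so that check could not show pairing by animal. Animals shared by tumor epithelium and tumor stroma had different replicate numbers in each, so it could not show their pairing either. No comparison had every r above 0.1. The replicate block on those numbers gave 0 for blood neutrophils and was within 1.5 times the reported count elsewhere. The block on animal numbers in the titles gave 6 for tumor epithelium against stroma and 1 for tumor neutrophils against tumor epithelium.

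Some log2 fold changes of uncalled members in epithelium changed sign. On the log2(RPKM + 1) and log2(RPKM + 0.1) scales they were 0.56 and 0.59 for Cdh1, 0.55 and 0.69 for Dsc2, 0.62 and 0.67 for Dsp, and 0.35 and 0.67 for Pkp3, and for Jup in stroma -0.12 and -0.15. Pkp3 was at 0.13 by limma-voom, Dsc2 at 0.0024 with at least 10 counts in every library, and Jup in stroma at -0.22 without tumor stromal replicates 1 and 2. With single libraries left out, Dsc2 ranged from -0.17 to 0.016, Dsp from -0.16 to 0.070 and Pkp3 from -0.43 to 0.41. Of 401 recomputed member values, 356 kept their direction and call.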
